A study of Mus musculus with 16 samples.

Results

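Promoters with Pol II only in mouse embryonic fibroblasts (MEFs) were 2951 of the 20807 protein-coding genes on the 19 autosomes, or 14.2%. They were chosen by the peak lists themselves: a Pol II peak of the WT and of the KO MEF list overlapped the stretch from 1000 bp before to 1000 bp after the transcription start site (TSS), and no peak of the WT or KO mouse embryonic stem cell (mESC) list overlapped it. Pol II was called in both MEF lists at 10576 promoters, so these genes made up 27.9% of them. For comparison, 5437 promoters carried Pol II in all 4 lists, 128 only in the mESC lists and 8559 in none. Because the rule used the Pol II lists of both cell types, presence in MEFs and absence in mESCs are given here as descriptions. The H2Bub1 lists and the DNA sequence were not used by the rule. The MEF Pol II lists were longer, with 45870 peaks in WT and 32232 in KO against 17074 and 11963 in mESCs, and the part of list length in the absence of a mESC peak was not tested at single genes.

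The study asked what the loss of ATXN7L3, an adaptor of the enzymes that take ubiquitin off histone H2B, does to this mark and to Pol II. Cells were Atxn7l3+/+ (WT) or Atxn7l3-/- (KO) on a mixed DBA/2 and C57BL/6 background, and each of the 8 peak lists used here came from 1 library, so differences between groups have no replicate check and no test. The mESCs were lines from blastocysts, grown without feeders before use in medium with serum, LIF, PD0325901 and CH99021, and the MEFs were grown in serum from embryos collected at E10.5. The KO allele is constitutive, both genotypes came from crosses of heterozygous mice, and the study calls its KO fibroblast cultures MEF-like and describes many round cells in them.

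RNA polymerase II (Pol II) is the enzyme that transcribes protein-coding genes, and a ChIP-seq peak of its subunit RPB1 near a TSS marks a promoter that holds the enzyme. Ubiquitin on histone H2B (H2Bub1) is placed on transcribed gene bodies as Pol II elongates and is removed by deubiquitylating modules that include the one of the SAGA complex, in which ATXN7L3 sits with a ubiquitin protease. Fibroblasts are known for the collagens, other matrix proteins and contractile proteins they make.

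Of the named genes, those with the highest WT MEF fold in 6 functional groups, and with a match to at least 1 of the motifs searched, are shown by their promoter sequence. Each line is the 300 bases from 250 before the TSS of the GENCODE record, 5′ to 3′ on the gene's strand, read from the RefSeq copy of GRCm38 (mm10), with motif matches on either strand in capitals.
Col3a1: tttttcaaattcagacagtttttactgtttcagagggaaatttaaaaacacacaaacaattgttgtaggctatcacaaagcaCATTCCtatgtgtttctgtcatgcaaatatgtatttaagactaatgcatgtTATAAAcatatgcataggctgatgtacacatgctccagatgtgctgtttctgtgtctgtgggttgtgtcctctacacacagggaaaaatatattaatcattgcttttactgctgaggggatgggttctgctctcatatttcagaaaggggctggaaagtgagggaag
Cdh11: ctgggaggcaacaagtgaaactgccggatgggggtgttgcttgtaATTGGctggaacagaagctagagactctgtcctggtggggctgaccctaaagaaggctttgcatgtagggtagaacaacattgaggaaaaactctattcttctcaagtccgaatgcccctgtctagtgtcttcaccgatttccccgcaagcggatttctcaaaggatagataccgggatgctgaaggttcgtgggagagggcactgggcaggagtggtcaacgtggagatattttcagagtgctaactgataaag
Anxa1: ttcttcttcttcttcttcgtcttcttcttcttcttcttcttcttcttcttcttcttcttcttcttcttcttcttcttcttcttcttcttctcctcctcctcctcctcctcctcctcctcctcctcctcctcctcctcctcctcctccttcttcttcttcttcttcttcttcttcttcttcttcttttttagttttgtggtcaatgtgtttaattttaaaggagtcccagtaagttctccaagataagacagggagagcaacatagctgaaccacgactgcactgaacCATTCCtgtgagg
Twist1: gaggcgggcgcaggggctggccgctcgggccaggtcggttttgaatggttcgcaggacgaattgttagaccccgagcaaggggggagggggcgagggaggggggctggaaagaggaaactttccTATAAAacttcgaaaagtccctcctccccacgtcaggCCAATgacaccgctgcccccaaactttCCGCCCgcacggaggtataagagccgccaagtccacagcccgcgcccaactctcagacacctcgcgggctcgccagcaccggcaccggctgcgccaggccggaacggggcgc
Sdhc: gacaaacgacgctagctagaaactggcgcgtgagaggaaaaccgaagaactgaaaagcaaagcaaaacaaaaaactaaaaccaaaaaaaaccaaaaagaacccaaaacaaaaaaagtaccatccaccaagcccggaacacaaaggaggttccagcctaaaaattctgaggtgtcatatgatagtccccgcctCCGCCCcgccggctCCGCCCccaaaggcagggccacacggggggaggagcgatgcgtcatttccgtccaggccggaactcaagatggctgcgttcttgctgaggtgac
Slc25a24: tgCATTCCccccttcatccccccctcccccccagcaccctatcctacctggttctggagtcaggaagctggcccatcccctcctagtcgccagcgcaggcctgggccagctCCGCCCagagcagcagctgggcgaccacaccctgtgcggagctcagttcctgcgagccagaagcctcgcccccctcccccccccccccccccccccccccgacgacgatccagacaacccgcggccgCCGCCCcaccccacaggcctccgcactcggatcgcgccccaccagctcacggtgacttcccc
Col3a1 (matrix) lies at chr1:45311288-45311587 on the + strand, Cdh11 (adhesion) at chr8:102785593-102785892 on the - strand, Anxa1 (cytoskeleton) at chr19:20390895-20391194 on the - strand and Twist1 (transcription factor) at chr12:33957421-33957720 on the + strand. Sdhc (respiratory chain) lies at chr1:171150554-171150853 on the - strand and Slc25a24 (solute carrier) at chr3:109122899-109123198 on the + strand. All 6 windows span the annotated TSS and the first bases of the gene. The capitals mark TATAAA in Col3a1 and Twist1, CATTCC (the core of TEAD sites) in Col3a1, Anxa1 and Slc25a24, CCAAT in Cdh11 and Twist1, and the GC box GGGCGG in Twist1, Sdhc and Slc25a24. The sequences differ widely in CpG: the Col3a1 window held 0 CpG dinucleotides, that of Anxa1 held 2 and that of Twist1 held 27.

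The fold of a Pol II peak is its pileup over the local background taken by the peak caller, and whether an input library gave that background is not known. Col3a1 had the highest WT MEF fold of all members, followed by Cirbp, and 3 of the 10 highest were fibrillar collagens. Col3a1, a chain of type III collagen, had a fold of 49.2 in WT and 18.1 in KO MEFs. Col1a2 had 43.3 and 19.5, and Col1a1 had 38.3 and 23.9, which with Col1a2 forms type I collagen. All 3 were lower in KO. Fbn1, which encodes fibrillin of elastic microfibrils, had 39.2 in WT and 16.3 in KO, and the overlapping Gm9913 shared the same peak. Thbs2, a thrombospondin of the matrix, had 37.4 in WT and 4.15 in KO. Anxa1, a membrane-binding annexin, had 36.8 and 23.5. Cirbp, a cold-inducible RNA-binding protein, had 43.5 and 33.4, and Iqcn had 38.1 and 44.4, the only one of the 10 with the higher value in KO. The Iqcn peak had its summit at -4473 bp from the TSS in WT MEFs the Cirbp peak at 1888 bp, the Fbn1 peak at 1637 bp and the Gm9913 peak at 1267 bp, so these 4 values are not those of a peak centred on the promoter.

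Over all members the median promoter fold was 9.86 in WT MEFs (95% exact binomial interval 9.65 to 10.1, which like all intervals here covers the count of genes only) and 7.92 in KO MEFs (7.75 to 8.12). At promoters with Pol II in all 4 lists the medians were 16.8 and 14.6 in MEFs and 4.85 and 4.87 in mESCs. Among members the summit of the peak lay a median of 86 bp downstream of the TSS in WT and 96 bp in KO MEFs. The summits of both MEF peaks lay inside the window at 2705 members, and the WT summit lay outside it at 205. Hoxb2, Has2, Ogn, Maff and Hoxc6, whose folds are given below, are among the 205, with WT summits at 1565, 1469, 1131, 1128 and 1081 bp. Neighbouring genes shared signal: the members rested on 2667 distinct WT MEF peaks, and 555 members shared their peak with another member.

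The edges of the rule were narrow in distance and in fold. The members closest to exclusion were Usp49, with a mESC peak 1001 bp from the TSS, Gm48552 (1003 bp) and Zbtb46 (1006 bp). Cpeb4 was left out by a WT mESC peak at 999 bp, Ube2l3 by a KO mESC peak at 996 bp and Gm49027 by a KO mESC peak at 986 bp. The genes 4833427G06Rik (WT MEF fold 17.9), Cacnb2 (4.62) and Gng3 (15.2) were left out because the nearest KO MEF peak lay 1004, 1009 and 1020 bp away. The lowest WT MEF folds among members were those of Gm10800 (1.97 in WT, 1.77 in KO), Il1r1 (2.12 and 3.92) and Ptgs1 (2.13 and 11.2). A mESC Pol II peak lay within 5000 bp of the TSS at 391 members and in the gene body at 711. The rule needs a peak in both MEF lists, so it leaves out 704 promoters with Pol II in WT MEFs alone and 248 in KO MEFs alone.

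The MEF label was checked against marker genes. Pol II was called at the promoters of all 22 fibroblast markers in WT MEFs and of 19 in KO MEFs, while WT mESCs had 1 and KO mESCs had 0. Of these 22 genes 18 were members. The summed fold over the fibroblast markers was 438 in WT and 221 in KO MEFs. Of the 18 pluripotency markers 1 had a promoter peak in WT MEFs and 3 had one in KO MEFs. These were Klf2 in both lists and Lin28a and Tfcp2l1 in KO, while Nanog, Pou5f1 and Sox2 had none in either. Each mESC list held promoter peaks at only 11 of these 18 genes. Dppa3, Dppa4, Esrrb, Fgf4, Lin28a and Tcl1 were called in neither mESC list. The mESC lists thus missed markers of their own cell type, and a promoter without a mESC peak is one absent from these lists only. The rule itself keeps markers with a mESC peak out of the members. The KO MEF list also held promoter peaks at 9 of 23 epithelial and mesothelial markers, among them Msln, Upk3b, Muc16 and Wt1, with a summed fold of 141, where the WT MEF list held 0 of 23. Blood and macrophage markers had peaks at 7 of 15 in WT and 10 of 15 in KO MEFs, with summed folds of 44.96 and 70.6, and Lyz2, Spi1 and Tyrobp of this list were members. Endothelial markers had 3 and 1 of 14, neural markers 4 and 2 of 16, and muscle markers 2 and 3 of 16 in WT and KO MEFs, and of these lists only Tubb3 was a member. The 4 Y-linked genes examined had promoter peaks in WT MEFs and in none of the other lists. Fewer fibroblasts in a culture and less Pol II per fibroblast cannot be told apart in these bulk libraries, and the part of other cell types in the KO to WT values below was not tested.

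Among the lists with at least 5 members, collagen chains had the highest median WT MEF fold, 21.1, against 9.86 over all members. Of 15 collagen chain genes with Pol II in both MEF lists, 9 were members, against 27.9% of all such promoters. The same held for 23 of 36 matrix glycoprotein genes, 8 of 14 proteoglycan genes, 4 of 5 laminin chains, 13 of 25 enzymes that process or cross-link collagen, 15 of 29 matrix metalloprotease and ADAM genes and 7 of 12 genes of protease inhibitors and the plasminogen system. Any lower fold in KO than in WT MEFs was found at 67.1% of all members and 67.5% of promoters with Pol II in both MEF lists, and at least 2-fold lower values at 10.8% and 7.27%. Counts of lower values by gene list below are to be read against these shares. All 9 collagen members were lower in KO, 5 of them at least 2-fold (10.8% of all members were), with a median log2 ratio of -1.15. Col12a1, a collagen associated with fibrils, had a fold of 24.4 in WT and 7.79 in KO. Col5a2, which regulates fibril diameter, was near equal at 21.1 and 20.3. Of the 8 proteoglycan members 7 were lower in KO and 6 at least 2-fold, beside 10.8% of all members, and the median log2 ratio was -1.29. Vcan, which encodes the large proteoglycan versican, had 18.4 in WT and 2.16 in KO, Ogn had 17.9 and 5.40, Has2, a hyaluronan synthase, had 12.6 and 6.04, and the glypican Gpc6 had 11.1 and 2.63. Lum was lower (9.25 and 3.53) and Dcn higher (8.66 and 13.5) in KO, and both encode small leucine-rich proteoglycans.

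Matrix glycoprotein members were lower in KO at 22 of 23, against 67.1% of all members, and 7 were at least 2-fold lower, against 10.8%. Thbs1 had 34.2 in WT and 29.5 in KO MEFs, a smaller difference than its relative Thbs2, but the summit of its WT peak lay 17350 bp downstream of the TSS. Lox, the lysyl oxidase that cross-links collagen, had 24.4 and 10.45, and the collagen chaperone gene Serpinh1 had 22.6 and 23.1. The proteases Adamts1 and Adamts6 differed widely, with folds of 33.7 and 27.2 in WT and 26.3 and 4.57 in KO. The metalloprotease inhibitors Timp2 (30.4 and 24.7) and Timp3 (22.5 and 27.0) and the urokinase gene Plau (22.58 and 18.99) stayed within 2-fold, while Serpinf1 had 19.7 and 5.52. Among laminins, Lama4 had 16.3 and 4.67, Lamb1 had 17.9 and 10.8, and Lama5 had the higher value in KO (4.05 and 7.06).

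**Figure D1:**
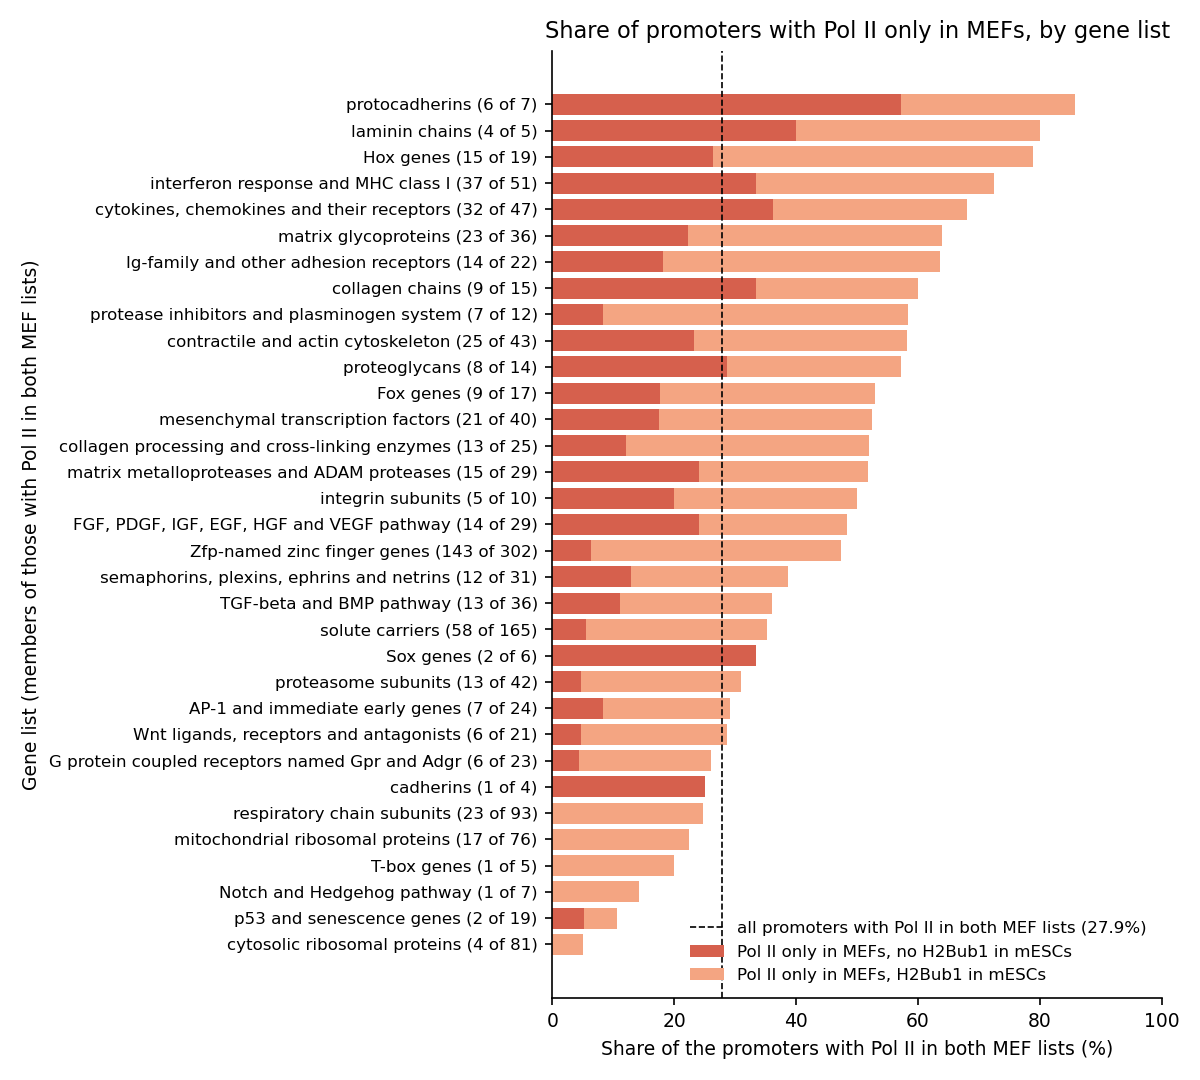
Share of the promoters with Pol II in both MEF lists that had none in mESCs, by gene list, for lists with at least 4 such promoters. Bars are split by H2Bub1 in the gene body in mESCs (dark, in neither list), numbers in brackets are members of those with Pol II in both MEF lists, and the dashed line is the 27.9% over all such promoters. Matrix, Hox, interferon and cytokine lists lie to the right of the line and cytosolic ribosomal proteins (4 of 81) to its left.

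Of 4 cadherins with Pol II in both MEF lists 1 was a member (25%, beside 27.9% of all such promoters): Cdh11, the mesenchymal cadherin, with a fold of 31.7 in WT and 21.4 in KO MEFs. Of 7 protocadherins with Pol II in both MEF lists 6 were members, and Pcdh18 had 18.4 in WT and 3.32 in KO. Of 22 adhesion receptor genes 14 were members. Cd44, the hyaluronan receptor, had 20.8 and 6.93, Cd248 had 20.4 and 9.48, and Vcam1 had 15.1 and 16.1. Integrin members, 5 of 10, went both ways: Itgb8 had 12.3 and 7.73 and Itga3, a laminin receptor subunit, 5.16 and 21.3. Cytoskeletal and membrane-associated members were 25 of 43, of which 19 were lower in KO, beside 67.1% of all members, and 7 at least 2-fold, beside 10.8%. Acta2, smooth muscle actin, had 31.6 in WT and 10.0 in KO, the actin-binding gene Cald1 had 28.1 and 12.3, and Myl9, a myosin light chain, had 21.6 and 4.13. Vim, the intermediate filament vimentin, had 34.2 and 23.3, and Tpm1, a tropomyosin, had 23.2 and 27.8.

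Of the transcription factor genes with Pol II in both MEF lists, members were 15 of 19 Hox genes, 9 of 17 Fox genes and 21 of 40 mesenchymal factors. T-box genes had 1 of 5 and Sox genes 2 of 6, and the share over all such promoters was 27.9%. Twist1, a bHLH factor of mesenchyme, had folds of 26.8 and 20.3, the zinc finger gene Snai2 had 21.1 and 10.6, and the homeobox gene Msx1 had 23.8 in WT against 10.0 in KO. Of the 21 mesenchymal factors 18 were lower in KO (67.1% of all members were), 6 at least 2-fold (10.8% were), and Prrx1 had 18.5 and 5.84. Sox9, the factor of chondrocytes, had 16.02 and 4.97, and Sox5 had 2.70 and 10.96. Of the Hox members 9 of 15 were lower in KO, near the 67.1% of all members: Hoxa3 had 12.5 and 6.47, Hoxa7 had 12.4 and 5.48, Hoxb2 had 11.1 and 15.7, and Hoxc6 had 10.8 and 10.8. Of 302 Zfp-named zinc finger genes with Pol II in both MEF lists 143 (47.35%, beside 27.9%) were members. Their median log2 ratio was -0.21, and 7 were at least 2-fold lower, a smaller share than the 10.8% of all members. Zfp521 had 29.5 in WT and 2.61 in KO, the lowest ratio of any member. Of 24 immediate early genes 7 (29.2%) were members, near the 27.9% of all promoters with Pol II in both MEF lists, among them Dusp1 (14.7 and 8.82), Maff (11.9 and 17.9) and Nr4a1 (10.4 and 13.4). The Dusp1 record is 56539 bp long, and the values are those at the TSS of this record. A KO mESC peak lay 53194 bp from that TSS, and whether another start of Dusp1 carried Pol II in mESCs was not tested.

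Signalling members took in ligands, receptors and modulators. Of the ligands, Tgfb2 had 17.6 in WT and 10.3 in KO, Wnt5a had 11.9 and 9.17, the macrophage growth factor Csf1 had 22.7 and 18.3, and Bmp4 had 15.2 and 2.81. Of the receptors, Fzd2, a Wnt receptor, had 25.0 and 6.67, Pdgfrb, a PDGF receptor of mesenchyme, had 21.9 and 8.80, Nrp1 had 15.0 and 5.64, and Axl had 14.9 and 16.9. Fstl1, a secreted BMP modulator, had 26.3 and 11.2. Members were 13 of 36 TGF-beta and BMP genes, 14 of 29 genes of the FGF, PDGF and related pathways, and 12 of 31 guidance genes, beside 27.9% of all promoters with Pol II in both MEF lists. Wnt genes, with 6 of 21 (28.6%), were at that background, and Notch and Hedgehog genes, with 1 of 7 (14.3%), below it. Cytokine, chemokine and receptor members were 32 of 47, 22 of them lower in KO, a share near the 67.1% of all members. The chemokine Ccl7 had 24.7 and 8.42, and Tnfrsf12a, a receptor of the TNF family, had 22.8 and 34.9. Interferon response and MHC class I members were 37 of 51, 28 of them lower in KO (67.1% of all members were) and 12 at least 2-fold (10.8% were). Isg15, a ubiquitin-like protein induced by interferon, had 24.1 and 10.6, the interferon regulatory factor gene Irf7 had 21.4 and 6.44, Stat2 had 23.8 and 17.4, and Irgm1 had 21.8 and 15.7.

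Genes of the respiratory chain, ribosomes and proteasome also met the rule. Members were 23 of 93 respiratory chain genes, 17 of 76 mitochondrial ribosomal protein genes, 13 of 42 proteasome genes and 4 of 81 genes whose names match cytosolic ribosomal proteins, of which Rps6ka4 and Rps6kb2 encode kinases. The others, Rps14 and Rps24, had KO mESC Pol II peaks 1563 and 3343 bp from the TSS of their records. The nearest WT mESC peaks lay at 27095 and 3068 bp, and the Rps14 record is 31449 bp long. Whether another start of these genes carried Pol II in mESCs was not tested. The shares of the respiratory and ribosomal lists lie below the 27.9% background. The proteasome share was 30.95%, but Psmb8, Psmb9 and Psmb10 among its members are also in the interferon and MHC list. Mrpl10 had folds of 25.4 in WT and 13.5 in KO, Sdhc had 19.6 and 11.6, Psmb6 had 18.3 and 13.6, and Ndufs8 had 17.7 and 14.2. In mESCs H2Bub1 peaks covered 75.6% (WT) and 96.3% (KO) of the Ndufs8 gene body and 62.5% and 100% of Psmb6. The values were 39.4% and 100% for Mrpl10 and 0.99% and 39.3% for Sdhc. Whether these promoters held Pol II that the mESC lists missed was not tested. Among solute carriers 58 of 165 were members, led by Slc25a24 (25.6 and 12.2). Atxn7l1, a paralog of ATXN7 in the deubiquitylating module, was the only member of the 8 genes listed for that module and had 12.9 and 11.6. Of all 1128 autosomal olfactory receptor genes only 3 had Pol II in both MEF lists, and all 3 were members, with WT folds of 3.18 to 4.67. None of the 49 autosomal keratin genes had Pol II in both MEF lists, so none could be a member.

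The KO to WT ratio of the promoter fold compares values within 2 lists and gives no absolute change. The median log2 ratio was -0.25 over members (95% interval -0.28 to -0.22) and -0.21 over promoters with Pol II in all 4 lists (-0.23 to -0.20). At least 2-fold lower values in KO were found at 318 members, or 10.8% (9.68 to 11.95, exact Clopper-Pearson), against 7.27% of all promoters with Pol II in both MEF lists. At least 2-fold higher values were found at 78 members, or 2.64% (2.095 to 3.29), against 1.28%. The 5 lowest ratios were those of Zfp521, Thbs2, Vcan, Adamts6 and Pcdh18, with log2 values of -3.50, -3.17, -3.09, -2.57 and -2.47. The 5 highest were those of Tinagl1 (3.27 in WT, 19.9 in KO), Ptgs1 (2.13 and 11.2), F11r (4.70 and 21.3), Myrf (3.27 and 14.6) and Pdpn (5.49 and 24.3). Tinagl1 encodes a secreted matrix protein, Ptgs1 a cyclooxygenase, F11r a tight junction adhesion protein, Myrf a membrane-bound transcription factor and Pdpn a mucin-type membrane glycoprotein. These values stand beside the epithelial and mesothelial markers given above, whose summed promoter fold was 0 in WT and 141 in KO MEFs.

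**Figure D2:**
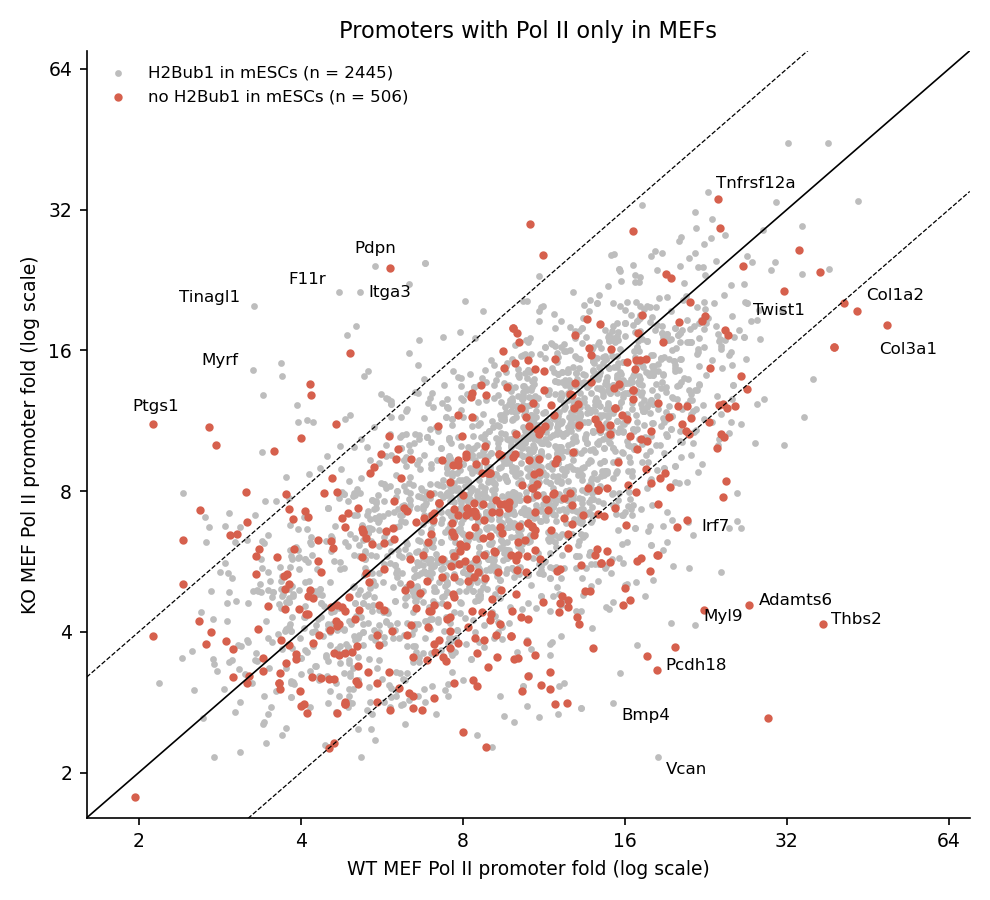
Pol II promoter fold in WT (x axis) and KO (y axis) MEFs at the 2951 promoters with Pol II only in MEFs, 1 point per gene, both axes on a log scale. The solid line marks equal folds and the dashed lines 2-fold differences, and red points are the 506 genes with no H2Bub1 in either mESC list. More points lie below the lower dashed line (318) than above the upper one (78).

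H2Bub1 was called in a gene body when at least 1 bp of it lay inside a peak. In mESCs, where the rule leaves no Pol II peak at these promoters, 63.1% of members had H2Bub1 in WT (95% interval 61.4 to 64.9) and 79.9% in KO (78.4 to 81.3). The share over all genes was 55.7% and 62.1%. In MEFs the mark was in 42.5% of members in WT (40.7 to 44.3) and 90.1% in KO (88.9 to 91.1), against 31.7% and 54.3% of all genes. Promoters with Pol II in all 4 lists gave 93.9% and 98.2% in mESCs and 65.9% and 96.1% in MEFs. Members lay below these promoters in all 4 lists, a difference that was not tested. H2Bub1 was called in KO and not in WT at 47.8% of members in MEFs (46.0 to 49.7), against 22.9% of all genes, and at 19.7% in mESCs (18.3 to 21.2), against 9.53% of all genes. The reverse, a call in WT alone, was found at 8 members in MEFs (0.271%, against 0.293% of all genes) and 87 in mESCs (2.95%, against 3.13%). The H2Bub1 lists held 40979 (WT) and 48952 (KO) peaks in mESCs and 19725 and 28856 in MEFs. With only H2Bub1 peaks of -log10 q of at least 3 mESCs gave 11.2% (WT) and 50.6% (KO) and MEFs gave 4.27% and 79.5%, so that most of the calls in the WT lists were lost at that limit.

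**Figure D3:**
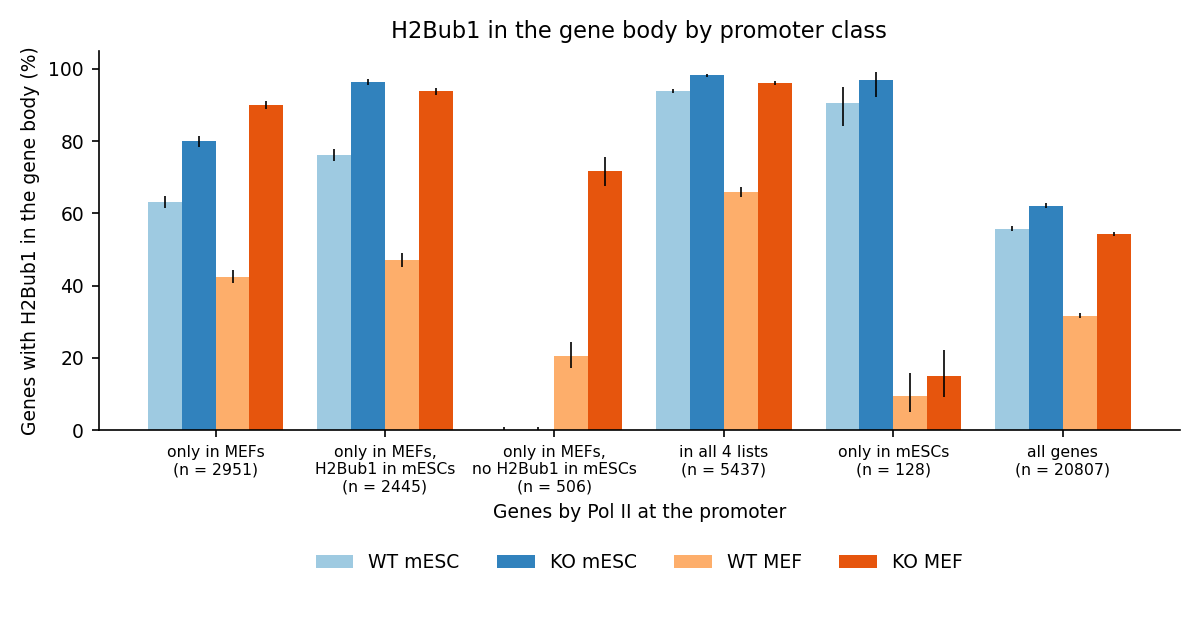
Percent of genes with H2Bub1 in the gene body in the WT and KO lists of mESCs and MEFs, for genes grouped by Pol II at the promoter. Error bars are exact 95% intervals over genes. In the genes with Pol II only in MEFs the KO MEF bar stands at 90.1% and the WT MEF bar at 42.5%.

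The covered share, the percent of gene body bases inside H2Bub1 peaks, followed the same order. Its median over members was 2.83% (WT) and 16.6% (KO) in mESCs. In MEFs it was 0% (WT) and 39.1% (KO). The median difference between KO and WT was 31.9 percentage points in MEFs (29.9 to 33.5) and 7.57 in mESCs (6.64 to 8.54), against 36.0 and 12.2 at promoters with Pol II in all 4 lists. The mESC value was 0 with only peaks of -log10 q of at least 3, 2.59 with lists of equal length and 3.98 over members at least 5000 bp from another gene, where the MEF value was 28.8, 29.1 and 29.8. At least 50% of the gene body was covered at 93 members in WT and 1206 in KO MEFs, and at 289 and 762 in WT and KO mESCs. A body free of H2Bub1 in WT MEFs and covered over its whole length in KO MEFs was found at 80 members, among them Cirbp, Ndufs8 and Zfp637. The 5 members with the most covered bases in KO MEFs were long genes. The kinase gene Mast4 had 474 kb, the transcription factor gene Foxp1 had 451 kb, the cGMP-dependent kinase gene Prkg1 had 434 kb, Ldlrad4 had 311 kb and the Notch coactivator gene Maml2 had 310 kb. In WT MEFs the covered shares of these 5 genes were 0.77%, 7.04%, 0.15%, 9.37% and 2.04%.

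The genes with the strongest Pol II peaks differed widely in H2Bub1 in MEFs. Cirbp had a covered share of 0% in WT and 100% in KO MEFs. The covered share of Col3a1 was 0.95% in WT and 15.7% in KO MEFs, that of Col1a2 7.40% and 18.8% and that of Fbn1 2.72% and 33.6%, and all 3 were at 0% in both mESC lists. Col1a1 (60.7% and 54.0%) and Thbs1 (61.1% and 54.0%) had lower shares in KO. Lox went from 15.4% to 59.4%, Cdh11 from 42.5% to 71.1%, Vim from 39.2% to 80.2% and Cald1 from 16.3% to 90.2%, all higher in KO. Acta2 was near equal at 11.8% and 10.4%. Shares of transcription factors ranged widely in KO MEFs. Zfp521 had 4.65%, Sox5 16.3%, Sox9 19.6% and Hoxa7 25.0% in KO, and the 143 Zfp-named members had a median of 42.7%, against 39.1% over all members. At the high end, Twist1 had 62.4% in WT and 100% in KO, Foxc1 had 58.7% and 96.7%, Snai2 had 32.4% and 76.0%, and Hoxc6 had 0% and 99.9%. The Hox members had a median of 0% in WT and 95.3% in KO MEFs, the highest KO median but for respiratory chain genes (95.6%) among the lists with at least 10 members. Vcan (2.73% in KO MEFs), Adamts6 (1.11%), Gpc6 (0.82%) and Sema3c (1.25%), a secreted guidance factor, stayed low in all 4 lists.

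**Figure D4:**
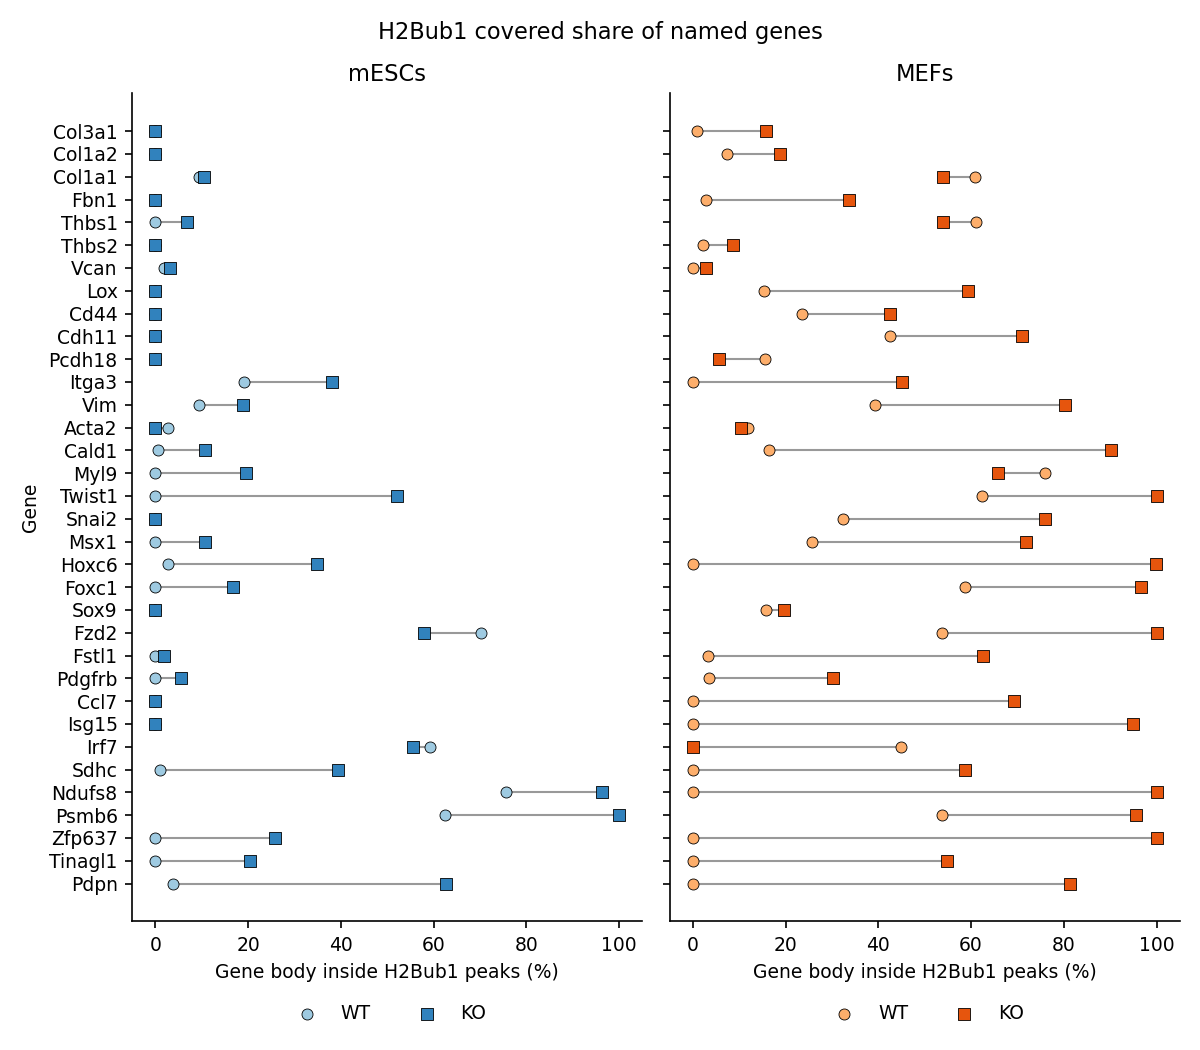
Percent of the gene body inside H2Bub1 peaks for 34 members, in mESCs (left) and MEFs (right). Circles are WT, squares are KO, and a line joins the values of a gene. Squares lie to the right of circles in MEFs for most genes, with Col1a1, Thbs1, Pcdh18, Acta2, Myl9 and Irf7 the other way round.

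A lower covered share in KO than in WT MEFs was found at 24 members (0.813%, against 0.529% of all genes), and at 4 of them by at least 10 percentage points. Irf7 had 44.97% in WT and 0% in KO MEFs, where its promoter fold was also lower, while its mESC shares were 59.2% and 55.5%. Gm10800, a short gene with the lowest WT fold of all members, had 100% and 56.3%, Ttc30b had 37.2% and 12.9%, and Myl9 had 76.0% and 65.8%. Besides Irf7, the call was lost in KO MEFs at Lama4, Fbn2, Tubb3, Daam2, Flrt3, Hspa12b and Slc24a3, each with 4.82% or less in WT. These genes were singled out after their values were seen.

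The members separated by H2Bub1 in mESCs, a measure the rule did not use. No H2Bub1 was found in either mESC list at 506 members, or 17.1% (15.8 to 18.6), and at least 1 bp was found at 2445. Over all genes the share without was 34.8%, and over all promoters with Pol II in both MEF lists it was 5.97%. The share without differed between gene lists. It held for 5 of 9 collagen members (Col3a1, Col1a2, Col12a1, Col5a2 and Col8a1), 10 of 18 fibroblast markers, 17 of 37 interferon and MHC members, 17 of 32 cytokine members and 10 of 25 cytoskeletal members. It held for 0 of 23 respiratory chain members and 0 of 17 mitochondrial ribosomal members. Zfp-named members (19 of 143, 13.3%) and solute carriers (9 of 58, 15.5%) lay closer to the 17.1% of all members. Only 13 of the 506 genes had a mESC Pol II peak anywhere in the gene body, against 698 of the 2445. Their median length was 24619 bp against 20647 bp, and 42.9% against 65.5% lay within 5000 bp of another protein-coding gene. Genes were divided in this way after the data had been seen, and with only H2Bub1 peaks of -log10 q of at least 3 the group without H2Bub1 in mESCs held 1441 members.

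In MEFs the genes without H2Bub1 in mESCs carried less of the mark. It was called at 20.6% of them in WT (17.1 to 24.3) and 71.7% in KO (67.6 to 75.6), against 47.0% and 93.9% of the others. The median covered share in KO MEFs was 12.4% against 43.6%. No list held H2Bub1 at 139 of the 506. The 5 of these with the highest WT MEF folds, chosen after their values were seen, were Tmem45a (22.4 in WT, 4.44 in KO), Colca2 (20.8 and 10.8), Gm2115 (19.8 and 3.71), Ndnf (17.6 and 3.55) and Fam151b (17.1 and 15.3). Pcdh9, Pcdh17, Itga4, Lum and Cxcl1 were also at 0% in all 4 lists. At the other end, Isg15 (0% in WT, 94.9% in KO MEFs), Plau (0% and 92.2%), Thy1 (0% and 80.9%) and Ccl7 (0% and 69.3%) had no H2Bub1 in 3 lists and wide peaks in the fourth.

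**Figure D5:**
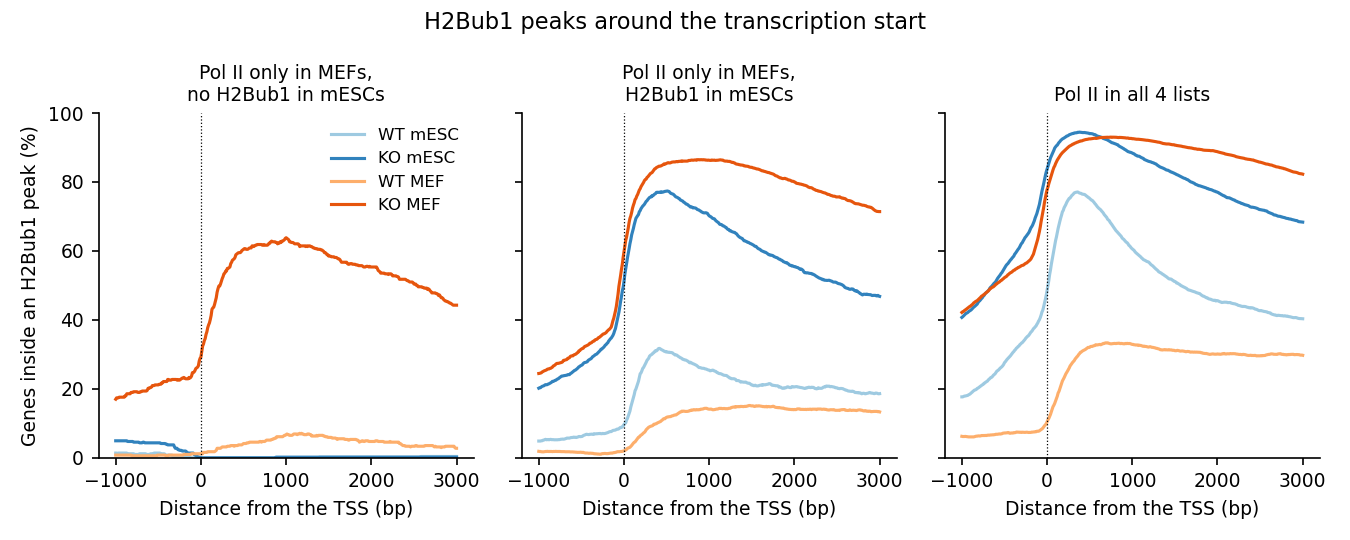
Percent of genes whose base at a given distance from the TSS (x axis, bp, positive downstream) lies inside an H2Bub1 peak, in each of the 4 lists, for members without and with H2Bub1 in mESCs and for promoters with Pol II in all 4 lists. In KO MEFs the curves reach 63.8%, 86.5% and 93.0%.

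Around the TSS the peaks lay downstream. In KO MEFs the largest share of members inside a peak, 82.5%, was found 990 bp downstream of the TSS, and at the TSS itself the share was 54.5%. In WT MEFs the largest share was 13.6%, at 1470 bp. In mESCs the largest shares were 26.3% at 410 bp in WT and 64.1% at 510 bp in KO. For promoters with Pol II in all 4 lists the corresponding positions were 750 bp in KO MEFs (93.0%), 710 bp in WT MEFs (33.4%), 360 bp in WT mESCs (77.1%) and 380 bp in KO mESCs (94.5%).

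The same 506 genes had lower KO to WT ratios of Pol II. Their median log2 ratio was -0.37 (-0.45 to -0.32), against -0.23 (-0.26 to -0.21) for the 2445 members with H2Bub1 in mESCs. At least 2-fold lower values in KO were found at 104 of 506, or 20.6% (17.1 to 24.3), and at 214 of 2445, or 8.75% (7.66 to 9.94). Since the ratio may vary with the strength of a peak, the 10576 promoters with Pol II in both MEF lists were ranked by the mean of their log2 WT and KO folds and cut into 5 equal classes. In the class with the lowest folds 19.2% of the 281 genes without H2Bub1 in mESCs were at least 2-fold lower in KO, against 10.1% of the 958 with it and 12.1% of the 439 with Pol II in all 4 lists. The median log2 ratios in this class lay closer together, at -0.35 (-0.46 to -0.20), -0.28 (-0.33 to -0.23) and -0.32 (-0.40 to -0.25). Under that stricter limit on H2Bub1 peaks the shares of all classes together were 14.7% of 1441 and 7.02% of 1510. In the class with the highest folds the shares were 27.3% of 22 genes (10.7 to 50.2), 3.36% of 119 and 2.94% of 1768. The fibroblast markers, 10 of 18 of which are among the 506, had a median log2 ratio of -0.96, and their summed fold is given above.

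A higher H2Bub1 covered share in KO MEFs was found at 89.4% of all members (88.3 to 90.5), against 53.8% of all genes and 93.3% of promoters with Pol II in both MEF lists, and is given here by the KO to WT ratio of Pol II. Of the 318 members with at least 2-fold lower Pol II fold in KO, 248 or 78.0% (73.0 to 82.4) had a higher covered share in KO, 11 had a lower one and 59 had no H2Bub1 in either MEF list. The share was 90.6% of the 2555 members within 2-fold (89.5 to 91.7) and 96.2% of the 78 members with at least 2-fold higher fold (89.2 to 99.2). At promoters with Pol II in all 4 lists the shares of the 3 classes were 81.2%, 96.0% and 96.3%. Median covered shares of members in KO MEFs for the 3 classes were 22.0%, 41.2% and 53.4%, and median differences from WT were 16.6, 33.2 and 45.6 percentage points. Bmp4, named after its values were seen, had a Pol II fold of 15.2 in WT, from a peak with its summit at 3247 bp, and 2.81 in KO, and covered shares of 16.1% and 96.2%. Foxc1 had folds of 19.2 and 6.23 and shares of 58.7% and 96.7%, and Fzd2 folds of 25.0 and 6.67 and shares of 53.8% and 100%. Thbs2 gained little, from 2.14% to 8.60%. Of the genes with higher Pol II in KO, Pdpn went from 0% to 81.4%, F11r from 0% to 92.6% and Sox5 from 0% to 16.3%.

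The promoters were poorer in CpG than those with Pol II in all 4 lists. The ratio of observed to expected CpG in the 300 bases had a median of 0.66 over members (0.65 to 0.68), 0.83 (0.83 to 0.84) over promoters with Pol II in all 4 lists and 0.52 (0.49 to 0.54) over the 506 genes without H2Bub1 in mESCs. A ratio under 0.5 was found at 29.4% of members, 10.0% of the promoters in all 4 lists and 45.8% of the 506. Over all autosomal protein-coding promoters the median was 0.54 and the share under 0.5 was 47.2%, so the members' median lay between that of all promoters and that of promoters with Pol II in all 4 lists. Named members covered the whole range, from Col3a1 (0), Ccl7 (0.07) and Lyz2 (0.08) to Foxp1 (1.11), Cdkn1c (1.05) and Zfp521 (1.34). The GC box GGGCGG was found on either strand in 56.8% of members, 46.0% of the 506 and 68.8% of promoters in all 4 lists, against 43.7% of all autosomal protein-coding promoters. TATAAA was found in 7.86%, 13.0% and 6.42%, against 12.7% of all. TGACTCA, the AP-1 site, was found in 3.29%, 4.94% and 2.61%, against 4.52% of all, CATTCC in 13.0%, 12.6% and 10.6%, against 13.5%, and the CArG box bound by SRF in 1.22%, 1.98% and 1.38%, against 1.4%. CCAAT was found in 41.3%, 37.0% and 38.9%, against 38.6%, and CACGTG in 8.98%, 6.52% and 11.5%, against 7.82%. Matches of different motifs may overlap, and a match is not a bound site.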

How the data were processed

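H2Bub1 and Pol II (RPB1) were profiled by ChIP-seq, 1 library per group, and the 8 peak lists of WT and KO mESCs and MEFs were used. The other 8 samples were not analysed here. Per the submitters' processing notes, the authors used bcl2fastq 2.17.1.14, Bowtie 1.0.0 and MACS2 2.1.1.20160309 on mm10. Peaks were called per library, narrow for Pol II and broad for H2Bub1. Thresholds, and whether an input entered the calls, are not given in the sources used here. Folds are linear ratios of pileup to local background, deposited as the authors' peak caller gave them. The deposited -log10 p-values and -log10 q-values come from the same caller and were used for stricter settings. The deposited score column is a rounded value for display and was not used in any result. The study scaled Pol II to mapped reads and H2Bub1 to intergenic reads, without saying how this entered the peak calls, so a ratio of folds compares 2 lists. Read depth is unknown.

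TSS and gene bodies were those of the gene records of GENCODE M21 (GRCm38). A promoter took the highest fold of the peaks within 1000 bp, and H2Bub1 needed 1 bp in the gene body. Intervals were exact Clopper-Pearson (percentages) or exact binomial (medians) at 95% and cover the count of genes only. Genes are not replicates, and no test was made. Motifs (TATAAA of the TATA box, TGACTCA of AP-1, CATTCC of TEAD, the CCAAT box, the E-box CACGTG, the GC box GGGCGG and the CArG box) were searched on both strands of 300 bases. Python 3.11.15, pandas 2.3.3, scipy 1.17.1, pysam 0.24.0 and samtools 1.23.1 were used, and the scripts were tested on simulated data.

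Members, the 42 gene lists and the alternatives were chosen with earlier results of these data known. In all, 564 members were in at least 1 list and 2387 in none. Named genes were the members with the 10 highest WT MEF folds, the 5 highest and 5 lowest KO to WT ratios, the 5 largest gains of covered share and the 5 with most covered bases in KO MEFs, up to 4 per list by WT MEF fold, the genes of the deubiquitylating module and the genes at the edges of the rule. Bmp4, Col5a2, Col8a1, Cxcl1, Dcn, Lum, Prrx1, Thy1, Tpm1 and the 8 members with H2Bub1 in WT MEFs alone were added after their values were seen. Some genes and a sequence that the rule names are not reported here. Alternatives changed the promoter window, the peak threshold, the list length, the TSS, the minimum cover and the exclusion of neighbouring genes.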

Additional observations from a re-analysis of the deposited data

Results flagged for a closer look

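At 59 of the 2951 members (2.0%, against 1.33% of all genes) the covered share of H2Bub1 differed between genotypes in opposite directions in mESCs and MEFs, by at least 10 percentage points in each, and it was lower in KO mESCs and higher in KO MEFs at 58 of them. Those named here, or in the descriptions above, are given with their values. With 1 library per group these differences between cell types were not tested. Cdkn1c, an inhibitor of cyclin-dependent kinases, had a KO minus WT difference of -39.34 points in mESCs and 66.59 points in MEFs. Gm48552, a gene at the edge of the rule, had -66.02 and 65.36 points, and Bmp4, a BMP ligand named after its values were seen, had -19.71 and 80.06 points. Fzd2, the Wnt receptor, had -12.37 and 46.22 points. Rps24, a protein of the small ribosomal subunit, had -13.22 and 19.33 points. Myl9, the myosin light chain, went the other way, with 19.49 points in mESCs and -10.15 points in MEFs.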

How the results depend on the processing

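Of 69 alternatives, 28 stayed within the limits set for a like value, 41 moved and 0 changed sign. Where a cause is not given by the construction of the alternative, the cause was not tested. With only peaks of -log10 q of at least 3, H2Bub1 was called at 11.22% of members in WT and 50.56% in KO mESCs and at 4.27% in WT and 79.5% in KO MEFs, calls in KO alone were 39.95% in mESCs and 75.33% in MEFs, and the median difference in covered share was 0 points in mESCs and 28.8 in MEFs. With the 4 lists reduced to the length of the shortest, the percentages were 41.78%, 64.22% and, in KO MEFs, 87.16%, calls in KO alone 25.72% in mESCs and 45% in MEFs, and the median differences 2.588 and 29.1 points. With at least 10% of the gene body covered, the percentages were 35.72%, 58.05%, 20.3% and 78.24%, and calls in KO alone 24.23% and 58.05%.

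Over the 1132 members at least 5000 bp from another protein-coding gene, the percentages were 53.53% and 71.47% in mESCs and 44.79% in WT MEFs, the median differences in covered share 3.977 and 29.82 points and the median log2 ratio of Pol II -0.3181. Without members that had a mESC Pol II peak within 5000 bp, the mESC percentages were 60.2% and 77.89% and the median difference 6.483 points. The median CpG ratio was 0.526 over 1000 bases either side of the TSS and 0.7611 around the WT MEF summit.

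The group without H2Bub1 in mESCs, a division made after seeing the data, held 289 members away from other genes, 1441 with the stricter limit and 959 with lists of equal length. Its median log2 ratio was then -0.466, -0.3047 and -0.3226, and H2Bub1 in KO MEFs was called at 77.85% of it in the first setting and 64.89% in the second. The share at least 2-fold lower in KO was 27.0% against 11.4%, 14.7% against 7.02% and 16.7% against 7.93% of the other members. No paired analysis was possible because each group has 1 library and no result comes from a test.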
